A study of Mus musculus with 2 samples.

Results

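The genes described here are 10 that build or drive the contractile machinery of smooth muscle: the actins Acta2 and Actg2, the motor Myh11, the kinase Mylk, the actin-binding proteins Tagln, Cnn1, Smtn, Lmod1 and Synpo2, and the intermediate filament Des. They were taken by gene symbol, and all 10 had a row among the 43346 Ensembl genes of the tables. RNA was from the sigmoid colon, the end of the colon that leads into the rectum, of 1 adult female C57BL/6J mouse, an inbred laboratory strain, aged 10 weeks. The labels give no treatment and no genetic change. They list 2 technical libraries of this 1 biological replicate, both selected for polyadenylated RNA, and library 2 was made in 2015. No conditions were compared, so every test below compares the 2 libraries and says nothing about variation between mice. The tissue was taken whole, and in such a sample fewer muscle cells and less RNA per muscle cell cannot be told apart.

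The wall of the colon carries layers of smooth muscle that push its contents along. Calcium entering these cells binds calmodulin, which switches on myosin light chain kinase; the kinase phosphorylates the light chains of smooth muscle myosin, and the myosin then pulls on actin. A phosphatase reverses the step. Thin filaments are anchored to dense bodies, which are tied together by desmin filaments. In many smooth muscle types these genes are switched on by serum response factor, which binds DNA at the CArG box, together with its cofactor myocardin.

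Library 1 held 25843064 expected counts and library 2 held 20681574. Mitochondrially encoded RNA took 24.1% and 5.59% of these counts, and nuclear protein-coding genes took 31.3% and 75.3% of the TPM (a level per transcript, corrected for length and scaled to the same total in each file). The libraries differed widely across the genome: of 15705 genes averaging 10 or more expected counts, 37% were called higher in library 2 and 28.2% lower, where a call needed an adjusted p under 0.05 in an exact binomial test with Benjamini-Hochberg adjustment and at least a 2-fold difference after TMM scaling. The log2 ratio of library 2 over library 1 followed the GC content of the transcripts over all genes tested (Spearman correlation 0.90, a description across genes, which share their libraries). With the GC trend taken off, 14.6% were called higher and 9.8% lower. Scaling by total counts in place of TMM raised every ratio by 0.75 and gave 47.7% higher and 11.7% lower. For this reason each of the 10 genes is given with its GC content.

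Together the 10 genes summed to 480 TPM in library 1 and 5139 TPM in library 2. Over nuclear protein-coding genes alone they made up 0.153% and 0.682% of the TPM, a 4.46-fold difference. By the test, 8 of the 10 were higher in library 2, against 37% of all genes tested, and 0 were lower, against 28.2%. Mylk and Synpo2 did not reach 2-fold. Among genes within 1 percentage point of GC, the share called higher was 13.4% for Acta2 and 38.1% for Cnn1. It was 55.2 to 70.5% for Tagln, Actg2, Myh11, Lmod1 and Mylk, 92.0% for Des, 96.1% for Smtn and 0.681% for Synpo2. The median log2 ratio of the 10 was 2.56, against 0.12 over all genes tested. With the GC trend taken off, 6 were called higher and 1 lower, against 14.6% and 9.8% of all genes tested, and the median was 1.41. The median GC content of the 10 was 53.0%, and that of all genes tested was 49.9%.

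**Figure D1:**
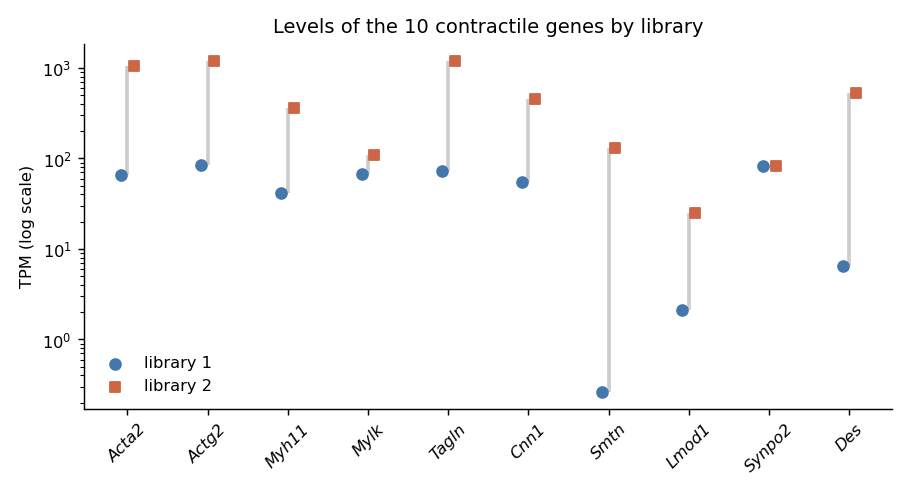
Level in TPM (log axis) of the 10 contractile genes, grouped by role, in library 1 (circles) and library 2 (squares). Actg2 was the highest in both libraries at 84.9 and 1207 TPM, Synpo2 was at 83.1 and 81.6 TPM, and Smtn spanned 0.26 to 131 TPM.

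The 2 smooth muscle actins form the thin filaments. Acta2, alpha smooth muscle actin, lies on the minus strand of chromosome 19 (34241090 to 34255590, GRCm38), and Actg2, the gamma smooth muscle actin typical of the gut wall, on the minus strand of chromosome 6 (83512905 to 83536265). Their coding sequences, 1131 and 1128 bases long in GENCODE M21, were identical at 84.2% of aligned positions. The first 90 aligned positions are shown because they hold the only gap between the 2 genes, and because reads of the pair are told apart by such differences; capitals mark the bases that differ.
Acta2: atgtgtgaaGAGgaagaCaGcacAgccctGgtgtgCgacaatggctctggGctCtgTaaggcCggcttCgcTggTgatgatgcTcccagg
Actg2: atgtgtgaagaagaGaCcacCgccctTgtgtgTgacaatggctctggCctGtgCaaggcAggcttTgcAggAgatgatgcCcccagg
In this stretch 16 of 90 positions differed, 3 of them the codon that Actg2 lacks. Of all 31-base words in the transcripts, 1.5% of those of Acta2 and 1.46% of those of Actg2 occurred in another gene.

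Acta2 was at 65.7 TPM in library 1 and 1060 TPM in library 2 (563 ± 703, mean ± SD, n = 2 technical libraries), from 2521 and 24395 counts. Actg2 was at 84.9 and 1207 TPM (646 ± 793, n = 2), from 2224 and 19914 counts. Actg2 thus stood above Acta2 in both libraries, by 1.29 and 1.14 times. The log2 ratio between the libraries was 2.84 (counting SE 0.03) for Acta2 and 2.73 (0.03) for Actg2. Both were called higher in library 2, also with the GC trend taken off (2.87 and 1.55).

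Acta2, at 49.6% GC, exceeded 98.6% of the 1701 genes within 1 percentage point of GC, whose median log2 ratio was 0.07. The GC content comes from a reference transcript 254 bases longer than the one quantified; cut to the quantified 1781 bases from either end, its GC content was 52.2 or 49.0%, its ratio off the trend 1.90 or 3.06, and the share of genes of like GC below it 93.4 or 99.0%. Actg2, at 52.8% GC, exceeded 88.4% of the 1639 genes near it.

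The 2 libraries assigned Actg2 to different transcripts. The authors' estimate gave Actg2-202 94.2% of the gene in library 1 and 0.19% in library 2, while Actg2-201 took 5.80% and 98.7%. In expected counts Actg2-202 went from 2088 to 36.1 and Actg2-201 from 136 to 19761. The same 8 coding parts make up both, as do 7 of the 9 exons. They differ in the non-coding first exon, which in Actg2-201 is 86 bases (83536180 to 83536265) at 52.3% GC and in Actg2-202 is 33 bases (83527958 to 83527990) at 24.2% GC, and by 7 bases at the 3′ end. The split therefore rests on reads over these short stretches, and the level of the gene as a whole does not depend on it. What lies behind the difference was not tested.

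Of the 4 other actins 3 were called higher in library 2, against 37% of all genes tested. With the GC trend taken off 2 were, against 14.6% of all genes tested. Actb and Actg1, the cytoplasmic actins of all cells, were at 184 and 1390 TPM and at 385 and 1827 TPM, with log2 ratios of 1.72 and 1.83. The share of Acta2 and Actg2 in the summed TPM of these 4 actins was 20.9% in library 1 and 41.3% in library 2. Acta1, the skeletal muscle actin, had 0 counts in library 1 and 275 in library 2, at least 68.1-fold higher when library 1 is set to a floor of 3 counts. Actc1, the cardiac actin, had 7 and 22 counts, a log2 ratio of 1.16 that did not pass.

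Myh11, the heavy chain of smooth muscle myosin and a widely used marker of the lineage, lies on chromosome 16 (14194535 to 14291372, minus strand). It was at 42.1 TPM in library 1 and 359 TPM in library 2 (201 ± 224, n = 2). It had 6527 and 33286 counts, the most of any of the 10 in library 2, for a transcript of 6632 bases. The log2 ratio was 1.92 (counting SE 0.02) at 53.1% GC, where the 1677 genes nearest in GC had a median of 1.42. The ratio was 0.59 with the GC trend taken off, and the call was lost.

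The summed TPM of the 2 smooth muscle actins was 3.58 times that of Myh11 in library 1 and 6.31 times in library 2. Myh9, a non-muscle myosin heavy chain found in most cells, was at 5.22 and 143 TPM, so Myh11 stood 8.06 and 2.51 times above it. Of the 31-base words of Myh11, 1.06% occurred in another gene, nearly all in Myh9 (64 of 69). Only 1 transcript of Myh11 was quantified, so its tail and head isoforms are not separated here.

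Mylk, myosin light chain kinase, had the lowest ratio for its GC content among the 10. It lies on chromosome 16 (34745210 to 35002420, plus strand), and its quantified main transcript, Mylk-201, is 7824 bases long. It was at 66.7 TPM in library 1 and 110 TPM in library 2 (88.1 ± 30.4, n = 2). It had 12206 counts in library 1, the most of the 10 genes there, and 12010 in library 2. The log2 ratio was -0.45 (counting SE 0.02, adjusted p = 1.57e-130 in the exact binomial test), short of 2-fold.

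The sign of that ratio was not stable. Scaling by total counts gave 0.30, taking off the length trend gave 0.28, and the ratio of the TPM values was 0.72, while taking off the GC trend gave -2.01, which was called lower. Mylk has a GC content of 53.6%, and of the 1677 genes within 1 percentage point 4.23% had a lower ratio; their median was 1.68. Myh11 and Lmod1 lie within 1 point of the same GC content and were at 1.92 and 2.39. Mylk over Myh11 was 1.58 in TPM in library 1 and 0.305 in library 2.

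GC content was uneven along this transcript. The coding part of 5850 bases was at 56.7% GC, and the 1891 bases after it at 44.4%. In windows of 200 bases the GC content ran from 33.5 to 66%, and 12.7% of windows were below 45%. That share was larger in Cnn1 (27.3%), Acta2 (21.5%), Tagln (13.3%) and Synpo2-201 (37.1%), and it was 0% in Smtn and Actg2, so it is not particular to Mylk. Mylk-201 took 99.3 and 99.7% of the gene, so no switch between quantified transcripts accompanied the ratio. The only other transcript quantified was the retained-intron Mylk-202, so a switch to a transcript with no model of its own could not be seen. On the opposite strand, Mylk overlaps E130310I04Rik over 548 exonic bases and Gm21691 over 224, for which no counts are given here. The short transcript from the 3′ part of the gene that encodes telokin is not analysed here. Whether where reads fall along Mylk differed between the libraries was not tested.

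**Figure D2:**
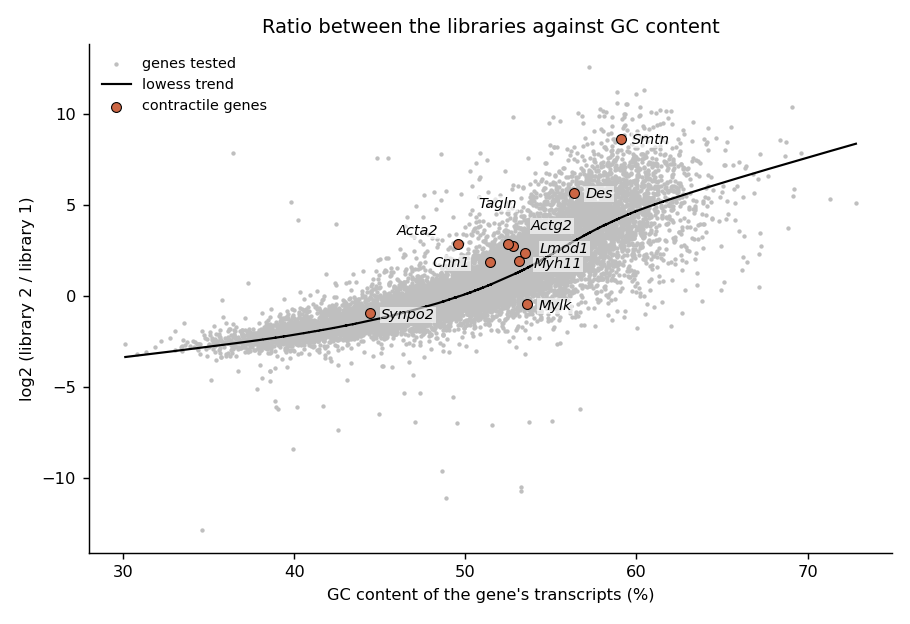
Log2 ratio of library 2 over library 1 (y axis) against the GC content of each gene's transcripts in percent (x axis) for the tested genes with a GC value, with the lowess trend and the 10 contractile genes marked. Mylk lies below the trend and the other members lie above it, furthest for Acta2, Des and Smtn and least for Synpo2 (by 0.39).

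Among the proteins that bind actin, Tagln and Cnn1 are markers of differentiated smooth muscle. Tagln, transgelin or SM22, is on chromosome 9 (45929619 to 45936058, minus strand). It was at 73.6 TPM in library 1 and 1186 TPM in library 2 (630 ± 786, n = 2), from 2476 and 23970 counts. Its log2 ratio was 2.85 (counting SE 0.03), above 92.1% of the 1648 genes near its 52.5% GC, and 1.80 with the GC trend taken off. Tagln ranked 2 of the 10 in library 2 and 3 in library 1.

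The levels of Tagln and Acta2 moved nearly alike in TPM, by 16.1-fold each, and after TMM scaling, by 7.19- and 7.18-fold. With the GC trend taken off, the log2 ratios were 1.80 for Tagln and 2.87 for Acta2. With the reference transcript of Acta2 cut to the quantified length from either end, its ratio was 1.90 or 3.06. How far the 2 genes differed off the trend therefore depends on the transcript model of Acta2. Tagln overlaps 2 genes on the opposite strand: Pcsk7 over 108 exonic bases, which had 107 and 2861 counts, and Gm48529 over 1241, which is not analysed here. No source used here states a strand setting for the counting, so it is unknown whether reads of Tagln and of these genes were kept apart where they overlap.

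Cnn1, calponin 1, damps the myosin motor and is on the same chromosome (22099216 to 22109630, plus strand). It was at 54.7 TPM in library 1 and 457 TPM in library 2 (256 ± 285, n = 2), from 2870 and 14376 counts. The log2 ratio was 1.90 (counting SE 0.03) at 51.4% GC and 1.27 with the trend taken off, called higher both times. Tagln over Cnn1 was 1.35 in TPM in library 1 and 2.59 in library 2. None of its 31-base words occurred in another gene.

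Smtn, smoothelin, marks contractile smooth muscle and binds its actin filaments. It lies on chromosome 11 (3517523 to 3540612, minus strand). It was at 0.26 TPM from 7 counts in library 1 and at 131 TPM from 4047 counts in library 2 (65.7 ± 92.6, n = 2). The log2 ratio was 8.65 (counting SE 0.53), which is 401-fold with a 95% exact interval of 208 to 1070 that covers counting error only. It was the highest of the 10.

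Smtn was also the highest of the 10 in GC content, at 59.1%. The 836 genes within 1 percentage point of it had a median log2 ratio of 4.56, and 96.5% of them were below Smtn. Its ratio was 4.32 with the GC trend taken off. It shares 714 exonic bases with the opposite-strand Gm11946, which had 248 and 1172 counts, and 39 with Gm11947. The 7 counts of library 1 were estimated to come from Smtn-206 (2) and Smtn-204 (5), too few to give shares. In library 2 the gene was made up of Smtn-203 at 59.3%, the short non-coding Smtn-206 at 26.2% and Smtn-201 at 10.2%. As shares of the gene's expected counts, these were 81.1, 5.44 and 7.46%.

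Des, desmin, forms the intermediate filaments of muscle. It lies on chromosome 1 (75360329 to 75368579, plus strand). It was at 6.49 TPM in library 1, from 304 counts, and at 522 TPM in library 2, from 21021 counts (264 ± 365, n = 2). The log2 ratio was 5.68 (counting SE 0.08), which is 51.3-fold, at 56.4% GC. Among 1444 genes near that GC content the median was 3.20, and 92.0% were below Des. The ratio was 2.65 with the GC trend taken off and was still called.

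Des-201, the coding transcript, took 59.8% of the gene in library 1 and 97.8% in library 2. The retained-intron transcripts Des-203 and Des-202 took 27.0 and 13.2% in library 1, and 0.74 and 1.45% in library 2. In expected counts they were few in both, 25.1 and 33.9 for Des-203, so the share in library 1 rests mainly on the low count of Des-201 (266 against 20916). Des-203 is at 48.9% GC and Des-201 at 56.5%.

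Lmod1, leiomodin 1, starts new actin filaments in smooth muscle. Its gene is on chromosome 1 as well (135324807 to 135368065, plus strand). It was at 2.13 TPM in library 1 and 25.3 TPM in library 2 (13.7 ± 16.4, n = 2), from 193 and 1369 counts, the lowest mean of the 10. The log2 ratio was 2.39 (counting SE 0.11) with an adjusted p of 2.72e-149, the largest among the 8 called genes. At 53.5% GC the 1682 nearest genes had a median of 1.61, and with the trend taken off the ratio of 0.90 no longer passed 2-fold.

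Synpo2, synaptopodin 2 or myopodin, bundles actin and lies on chromosome 3 (123076519 to 123236149, minus strand). It was at 83.1 TPM in library 1 and 81.6 TPM in library 2 (82.4 ± 1.05, n = 2). As TPM over nuclear protein-coding genes alone, it was at 265 and 108. It ranked 2 of the 10 in library 1 and 9 in library 2. In counts it had 5688 and 3956, and the log2 ratio was -0.95 (counting SE 0.03, adjusted p = 2.03e-227 in the exact binomial test), just short of 2-fold lower. DESeq2's size factors put it at -1.01, which passed, and taking off the GC trend turned it to 0.39.

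At 44.4%, Synpo2 had the lowest GC content of the 10. The 1468 genes near it had a median log2 ratio of -1.25, and 72.4% of them were below Synpo2. The transcripts moved within the gene: Synpo2-204, at 40.2% GC, went from 53.1 to 24.5% of it, and Synpo2-201, at 46.8%, from 11.4 to 36.7%. Synpo2-206 took 35.5 and 32.7% by TPM, and 12.9 and 10.1% of the gene's expected counts. The reference model of Synpo2-201 is 3279 bases longer than the one quantified, so its GC content is approximate.

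The contrast in base composition between the genes is printed here for the pair with the highest ratios and the pair that did not pass: the 90-base coding stretch nearest in GC content to the whole coding sequence, read in the frame of GENCODE M21, with G and C in capitals.
Smtn: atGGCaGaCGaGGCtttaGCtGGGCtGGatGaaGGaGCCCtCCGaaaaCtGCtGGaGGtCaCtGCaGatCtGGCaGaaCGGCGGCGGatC
Des: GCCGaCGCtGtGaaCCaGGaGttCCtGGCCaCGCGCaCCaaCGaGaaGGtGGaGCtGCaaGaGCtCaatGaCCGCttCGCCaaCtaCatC
Mylk: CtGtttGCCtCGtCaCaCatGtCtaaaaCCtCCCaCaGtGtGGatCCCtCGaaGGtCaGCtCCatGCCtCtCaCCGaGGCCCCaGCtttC
Synpo2: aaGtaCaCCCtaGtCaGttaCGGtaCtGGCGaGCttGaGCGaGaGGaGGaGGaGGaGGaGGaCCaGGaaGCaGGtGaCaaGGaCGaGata
Smtn and Des hold 54 G or C in this stretch, Mylk 51 and Synpo2 50. Over the whole coding part the GC content was 59.8% in Smtn, 59.6% in Des, 56.7% in Mylk and 55.1% in Synpo2-201. The other members were all called higher with TMM scaling. Their coding GC content was 53.8% in Acta2, 52.7% in Actg2, 53.6% in Myh11, 52.9% in Tagln, 53.9% in Cnn1 and 55.2% in Lmod1. All of these lay below Mylk, which did not pass. The printed genes lay further apart after the stop codon: 60.5% in Smtn, 52.7% in Des, 44.4% in Mylk and 43.6% in Synpo2-201. The value of Smtn covers only 157 bases. That of Synpo2-201 covers 5802 bases of the reference model, more than the 4842 of the whole quantified transcript, so it is approximate. Over the 10 members, Pearson's r between GC content and log2 ratio was 0.79 and the Spearman correlation 0.48 (n = 10 genes of the same libraries, as a description).

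**Figure D3:**
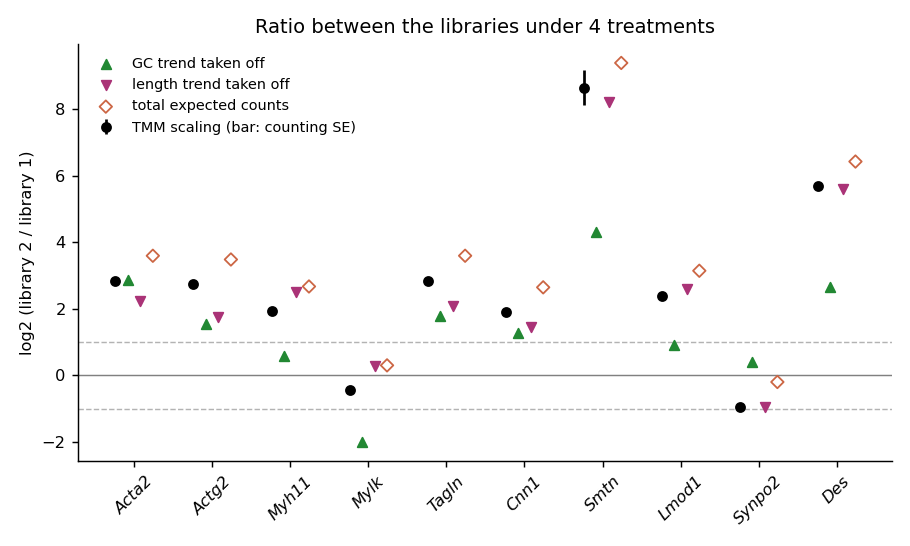
Log2 ratio of library 2 over library 1 (y axis) for each contractile gene with TMM scaling (circles, bars are the counting SE), with the GC trend or the length trend taken off, and with total counts as scale; dashed lines mark 2-fold. Acta2, Actg2, Tagln, Cnn1, Smtn and Des stay above the upper line in all 4, Myh11 and Lmod1 fall below it with the GC trend taken off, and Mylk and Synpo2 change sign.

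**Figure D4:**
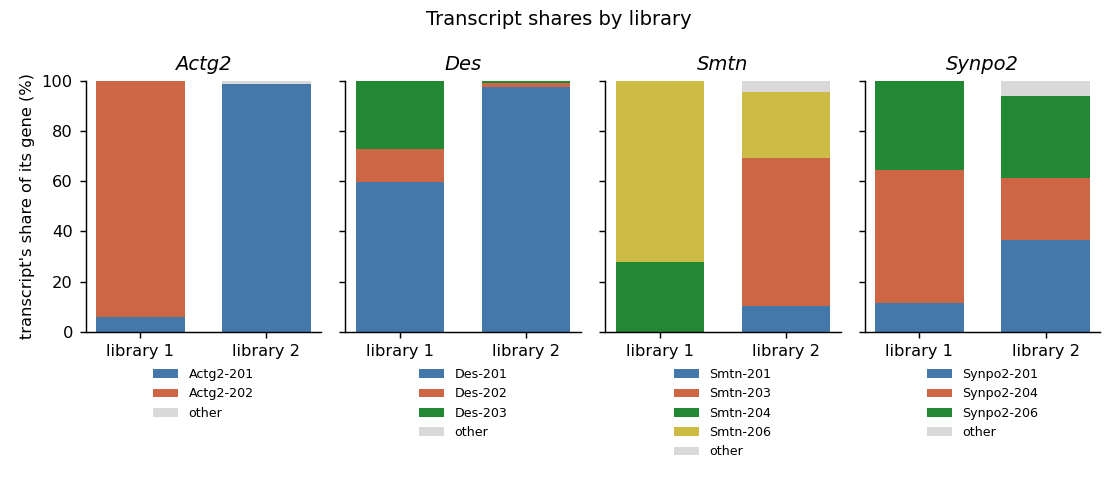
Share of each gene's TPM estimated for its transcripts (y axis, percent) in libraries 1 and 2; transcripts under 10% in both libraries are summed as other. Actg2 shifts from Actg2-202 to Actg2-201, Des to Des-201, and Synpo2 from Synpo2-204 towards Synpo2-201; the bar of Smtn in library 1 stands on 7 counts.

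The order of the 10 genes by TPM was shared in part. Of the 45 pairs of genes, 30 stood in the same order in both libraries. Actg2 ranked 1 in both, Lmod1 ranked 9 in library 1 and last in library 2, and Smtn ranked last in library 1 and 7 in library 2. Mylk and Synpo2 together took 31.2% of the summed TPM of the 10 in library 1 and 3.72% in library 2. In library 1 the 4 genes from Mylk to Actg2 lay between 66.7 and 84.9 TPM, so their order there separates levels that differ far less than the libraries do.

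Promoters were examined because most of these genes are textbook targets of serum response factor. RefSeq promoters of GRCm38.p6, from 250 bases before to 50 after the start, matched 7 of the 10 (Acta2, Cnn1, Des, Lmod1, Mylk, Smtn and Synpo2). The CArG box was searched as CC, 6 bases of A or T, then GG, which reads the same on both strands by this rule, and occurred in 0 of the 7 and in 1.63% of 32851 promoters. A search for exactly 1 G or C among the 6 core bases gave a match in Acta2 alone, against 8.5% of all promoters. Acta2 held 2 such matches, as did 0.679% of all promoters with 2 or more. The matches, printed 5′ to 3′ along the gene on the minus strand, are in capitals throughout.
Acta2 chr19:34255448-34255457: CCCTATATGG
Acta2 chr19:34255398-34255407: CCTTGTTTGG
They lie 84 to 75 and 34 to 25 bases before the RefSeq start used in that table, 34255373. GENCODE M21 puts the start of Acta2 upstream of this, and both matches fall inside its first exon (34255290 to 34255590). They describe letters in this window only, and CArG boxes further away or inside introns were not searched. For Synpo2 the window lies at 123236100 to 123236399. Its main transcripts Synpo2-201, Synpo2-204 and Synpo2-206 are annotated to start at 123117052, 123112810 and 123112986, and these starts were not searched.

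The counts in the lists that follow stand against 37% higher and 28.2% lower over all genes tested. Those with total counts as scale stand against 47.7% higher and 11.7% lower. Those with the GC trend taken off stand against 14.6% higher and 9.8% lower. All 4 myosin light chain genes tested were higher in library 2, with a median log2 ratio of 3.01. Myl9, the regulatory light chain that Mylk phosphorylates, was at 10.8 and 811 TPM (101 and 10629 counts, log2 ratio 6.28). Myl6, the essential light chain, was at 35.3 and 2332 TPM (4.90). Myl12a and Myl12b, non-muscle regulatory chains, were at 1.07 and 1.13, and Myl6b had 0 and 18 counts and was not tested. Of the 4, 3 were still called with the GC trend taken off.

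Genes upstream of the kinase went both ways. Calm2, a calmodulin gene, was at 705 and 592 TPM, with a log2 ratio of -1.44, and Calm3, another, was at 16.9 and 248 TPM (3.87). Of the calmodulin-dependent kinases, Camk2g, at 1.11, was higher and Camk2d, at -1.51, was lower. Neither Calm2 nor Camk2d was called lower with total counts as scale, and none of these 4 genes was called with the GC trend taken off.

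Of the 11 genes of the myosin phosphatase and its control, 4 were higher, a share near that over all genes tested, and 5 lower, with a median of -0.96. Ppp1cb, the catalytic subunit, was at 313 and 118 TPM (log2 ratio -2.49). Ppp1r12a, the targeting subunit of smooth muscle, was at 43.9 and 47.4 TPM (-1.06), and Rhoa, a small GTPase that acts to restrain the phosphatase, was at -0.96 and did not pass. The higher genes were Ilk (2.18), Ppp1r12c (4.37), Ppp1r14a and Dapk3. Ppp1r14a, the phosphatase inhibitor CPI-17, had 1 and 324 counts, a ratio with a 95% exact interval of 42.9 to 9530. Dapk3 had 0 and 510 counts, at least 126-fold higher against the floor of 3 counts. Total counts gave 5 higher and 3 lower. Taking off the GC trend gave 2 higher and 0 lower, with a median of 0.10.

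Among 16 thin filament, dense body and adhesion proteins, the median was 0.73, and 7 were higher and 3 lower. Tpm2, a tropomyosin, was at 43.7 and 816 TPM (log2 ratio 3.04), Flna, filamin A, at 31.7 and 490 TPM (3.24), and Csrp1 at 36.5 and 481 TPM (2.55). Tpm1, another tropomyosin and the highest of the list in mean TPM, was at -0.04, a sign that turns with total counts. The lower ones were Cald1, caldesmon (-1.44), Ldb3 (-1.19) and Dmd, dystrophin (-1.81). Total counts gave 10 higher and 1 lower. Without the GC trend the median was -0.36, with 3 higher and 2 lower.

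Of serum response factor and its partners, 4 of 10 were higher, a share near that over all genes tested, 1 was lower, and the median was 0.24. Srf itself, named here after its values were seen, was at 0.52 and 22.4 TPM from 49 and 1257 counts; its log2 ratio of 4.24 was called higher, and at 64.4% GC it turned to -1.82, called lower, with the GC trend taken off. Myocd, myocardin, was at 2.91 and 3.93 TPM from 266 and 161 counts, and its log2 ratio of -1.15 made it the lower one; off the GC trend it was at -0.85 and did not pass. Tead3 was at 4.61, while Klf4 (-0.65), Gata6 (-0.88), Foxf1 (0.35) and Mrtfb (0.02) did not pass. Total counts gave 5 higher and 0 lower and turned the sign of Klf4. Taking off the GC trend gave 0 higher and 5 lower, with a median of -1.19.

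Of 18 close relatives of the 10 genes, 11 could be tested, and of these 6 were higher in library 2 and 5 did not pass (median 1.12). Total counts gave 9 higher, and taking off the GC trend gave 2 higher and 4 lower. Tagln2 was at 26.5 and 301 TPM (log2 ratio 2.29), Myh14 at 0.96 and 300 TPM (6.42), and Myh9 at 3.66. Cnn3 (0.26) and vimentin, Vim (0.10), did not pass. Smtnl1 and Lmod2 had 0 counts in both libraries.

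**Figure D5:**
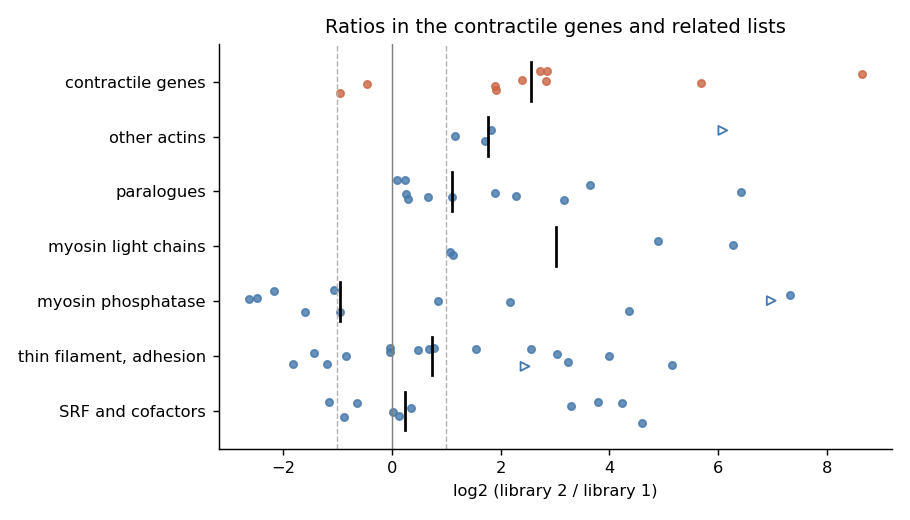
Log2 ratio of library 2 over library 1 (x axis) of each tested gene in the contractile genes and 6 of the related lists; vertical bars are medians, dashed lines mark 2-fold, and open triangles are lower bounds for genes with 0 counts in library 1. Among the lists plotted, medians run from -0.96 for the myosin phosphatase genes to 3.01 for the myosin light chains.

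Markers of other cell types that also express contractile genes were read in the same libraries. Skeletal muscle markers summed to 0.76 and 34.3 TPM over 8 genes, with Myh4 at 0 in both. The sum in library 2 was mostly Ckm (15.7 TPM) and Acta1 (15.3 TPM). All 3 skeletal markers tested were called higher, and 2 were with the GC trend taken off. Cardiac markers summed to 1.43 and 12.3 TPM over 6 genes, with Myh6 at 0 in both. Of the 2 cardiac markers tested 1 was higher, and 0 were with the GC trend taken off. Of 8 pericyte and vascular mural markers 5 were higher and 1 lower, with sums of 161 and 162 TPM. Rgs5, the lower one, held 141 TPM of this sum in library 1 and 80.1 TPM in library 2. Fibroblast markers summed to 741 and 963 TPM, with 1 of 7 higher and 2 lower. Interstitial cells of Cajal set the rhythm of the gut wall, and of their 4 markers 2 were higher and 1 lower. Epithelial markers, which check the colon label, summed to 4100 and 13150 TPM, and all 8 were above 0 in both, with 4 higher and 0 lower. These sums depend on the scale, as the nuclear coding part of the TPM was 31.3% and 75.3%. Rescaled to that part, pericyte and mural markers summed to 513 in library 1 and 215 in library 2. Rgs5 alone held 451 and 106 of these, so the lower sum rests on Rgs5, while 5 of the 8 were called higher. Fibroblast markers, rescaled likewise, summed to 2366 and 1277. Epithelial markers were at 13090 and 17450, skeletal ones at 2.43 and 45.6, and cardiac ones at 4.56 and 16.3. With the GC trend taken off, 1 pericyte and mural marker was higher and 1 lower, 0 fibroblast markers were higher and 3 lower, 0 markers of interstitial cells of Cajal passed either way, and 2 epithelial markers were higher and 2 lower. The part of these cell types in the levels of the 10 genes was not tested.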

How the data were processed

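Per the text files beside the tables, the authors used mouse assembly mm10 and GENCODE M4; no source used here names the aligner, the quantifier or its strand setting. Per the file headers, the deposited tables hold expected counts (estimated counts that share out reads matching several transcripts), TPM, a posterior mean of TPM, FPKM and, in percent, how much of its gene each transcript makes up. Bounds of a TPM interval (a score of unstated level) were deposited by the authors too and support nothing here. The effective lengths, in bases, are another deposited column, used only as a check of the length scale.

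The members and lists were chosen with earlier results of these data known. Named genes were the 10 members, the 5 highest by mean TPM of each related list, those called against most of their list, and those with 0 counts in both libraries; transcripts were named at 10% of their gene or more. Of the genes this rule takes, 1 is not reported here. Symbols matched 42462 of 43346 genes. Sequences and positions came from GENCODE M21 on GRCm38 (the assembly mm10) and RefSeq; GC content was averaged over a gene's transcripts with their TPM as weights.

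Expected counts were rounded. With 1 library a side no quasi-likelihood test was possible, so each gene with a mean count of at least 10 had a two-sided exact binomial test given TMM library sizes (edgeR 4.0.16, R 4.3.3; ratio of library 2 to library 1 1.35), with Benjamini-Hochberg adjustment, and was called under 0.05 at 2-fold or more. Ratios carry a prior count of 0.5, and a counting SE leaves out library preparation. Trends were lowess fits with a fraction of 0.2 (statsmodels 0.14.6, Python 3.11.15). The code was tested on simulated data. Alternatives were DESeq2 1.42.0 size factors, total and nuclear protein-coding counts, TPM ratios, GC and length trends taken off, other count minimums and 4-fold.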

Additional observations from a re-analysis of the deposited data

How the results depend on the processing

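The median log2 ratio of the 10 genes, 2.56 with TMM scaling, was 3.31 with total counts, 2.83 with nuclear protein-coding totals, 1.41 with the GC trend taken off, 2.15 with the length trend taken off and 3.70 as a ratio of TPM values. The genes called lower among the 10 went from 0 to 1 with DESeq2's size factors (Synpo2) and to 1 with the GC trend taken off (Mylk). Over all genes tested, 5807 calls of higher became 2297 with the GC trend taken off, and 4429 calls of lower became 1836 with total counts, 1539 with the GC trend taken off and 1164 at 4-fold. The sign of Mylk turned with total counts (0.30), the length trend taken off (0.28) and TPM ratios (0.72), and that of Synpo2 with the GC trend taken off (0.39). The cause was not tested. At 4-fold, Myh11 and Cnn1 lost their calls. Cutting the reference model of Acta2 to the quantified length was chosen after seeing the data. No paired analysis was possible because both libraries belong to 1 group. At 7 counts, Smtn in library 1 cannot be split into transcripts.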
